A study of Rattus norvegicus with 17 samples.

Results

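This is a comparison of tissue from Cdkn1b-mutant rats given 20 mg/kg NVP-BEZ235 with tissue from the control rats whose sample titles carry the numbers 5 to 7. All samples labelled with that dose were taken (6 libraries, title numbers 5 to 10), together with controls 5, 6 and 7, which made 9 of the series' 17 libraries. Each library is 1 Affymetrix array of amplified RNA, and its values are log2 expression levels after RMA, a method that brings arrays to a common scale. Every rat was 8 months old, carried the p27Kip1 mutation (gene Cdkn1b) and was of the Sprague-Dawley white eye/Wistar-Kyoto strain. The mutation is homozygous in the sample labels and heterozygous in the series design. Controls received 20 mg/kg PEG, the vehicle, and treated rats 20 mg/kg NVP-BEZ235. The labels give no length of treatment, and their treatment protocol names none. The treated libraries came from 4 females (5 to 8) and 2 males (9 and 10), the controls from 1 female (5) and 2 males (6 and 7). What the title numbers stand for is not stated. Each gene is represented by 1 probe set, and 14506 genes were tested with limma in a model of treatment and sex, with a threshold of 0.05 on the p-value adjusted over all of them. Whether each library is an animal of its own is not labelled, and p-values therefore reflect only how these 9 libraries vary.

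NVP-BEZ235 blocks phosphoinositide 3-kinase (PI3K) and mTOR, kinases that carry growth factor and insulin signals to protein synthesis, lipid synthesis and cell division. When the pathway is active, AKT keeps FOXO transcription factors out of the nucleus, and mTOR raises translation and the activity of SREBP, the regulator of sterol synthesis genes. p27 restrains the cyclin-dependent kinases that drive cells into S phase, and rats that lack it develop tumours of the pituitary and of the chromaffin cells of the adrenal medulla.

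The 9 arrays had medians between 4.95 and 5.03, lower quartiles between 3.65 and 3.76 and upper quartiles between 6.98 and 7.10, and correlated with each other at 0.971 to 0.991. Differences between values near the lower quartile are compressed. The tissue is labelled pituitary adenoma, while the series title speaks of pheochromocytoma. Gh1, growth hormone, lay between 3.32 and 3.82 in the 9 libraries, at or below the upper end of the lower quartiles but for treated library 5. Th, the first enzyme of catecholamine synthesis, lay between 11.46 and 12.67, and Cyp11a1, the first enzyme of steroid synthesis in the adrenal cortex, between 11.54 and 12.14. Both lay above the upper quartile of every array, while none of the 13 pituitary markers exceeded 6.29 in any of the 9 libraries. Probe sets differ in affinity, so these levels are read only against the quartiles of the arrays. Averaged over their markers, the chromaffin list lay between 9.51 and 9.997 in the controls and between 9.52 and 10.14 in the treated libraries, the adrenal cortex list between 9.13 and 9.46 and between 8.83 and 9.46, and the pituitary list between 3.98 and 4.15 and between 3.95 and 4.23. On the first principal component of the 9 libraries (33.0% of the variance) treated library 10 stood farthest out at 41.1, followed by treated library 9 at 18.7, and the other 7 lay between -23.1 and 3.14.

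Treatment at 20 mg/kg was associated with more falls than rises among the genes past the threshold. Over all 14506 genes, 7644 changes were positive and 6862 negative, with a median of 0.01. In all, 173 of 14506 genes (1.19%) passed the threshold, 31 of them higher (0.214%) and 142 lower (0.979%) in the treated libraries. The falls were also larger: 78 of the 142 lower genes and 3 of the 31 higher genes changed at least 2-fold. Immune genes and genes of mitosis made up most of the list members that fell. The largest falls were those of Fabp6, a bile acid binding protein, and Ccl11, the eosinophil attractant eotaxin, and the largest rises those of Creb3l1, a transcription factor of the endoplasmic reticulum, and Pde10a, a phosphodiesterase that degrades cyclic nucleotides. In a bulk tissue, fewer cells of a type and less RNA per cell cannot be told apart.

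**Figure D1:**
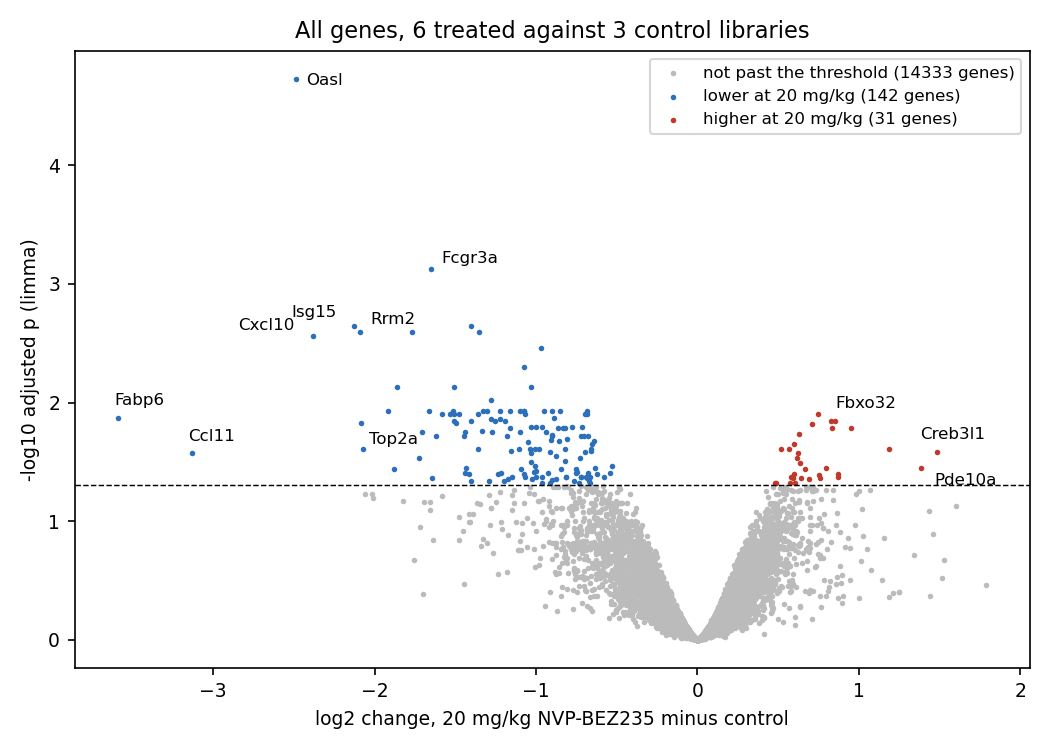
Change of each of the 14506 genes at 20 mg/kg (log2, horizontal) against -log10 of its adjusted p from limma (vertical), with the dashed line at 0.05. The 142 lower genes reach -3.59 and the 31 higher genes 1.48.

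The 6 treated and 3 control libraries did not overlap for 136 of the 173 genes (24 higher, 112 lower), against 887 of all 14506 genes (6.11%, of which 467 all higher, 3.22%, and 420 all lower, 2.9%). For 163 of the 173 genes each of the 6 treated values differed from the control mean in the direction of the change. The male (2 against 2) and female (4 against 1) differences had the same sign for all 173 genes, which the choice of genes by a model that averages them largely fixes. The number of genes past the threshold depended on single libraries: it was 22 without control 7, 64 without control 6, 88 without treated 6, 89 without treated 7 and 104 without treated 10 (14 higher, 90 lower). All 22 genes that passed without control 7 were among the 173. Which genes passed also moved where the count did not: without control 5, the only female control, 205 genes passed, of which 88 were among the 173, and without treated 9 it was 108 of 156. Without the sex term 55 genes passed (2 higher), all 55 among the 173. Centring each array on its median gave 63 higher and 147 lower genes, a larger share of rises than the 31 and 142 above.

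**Figure D2:**
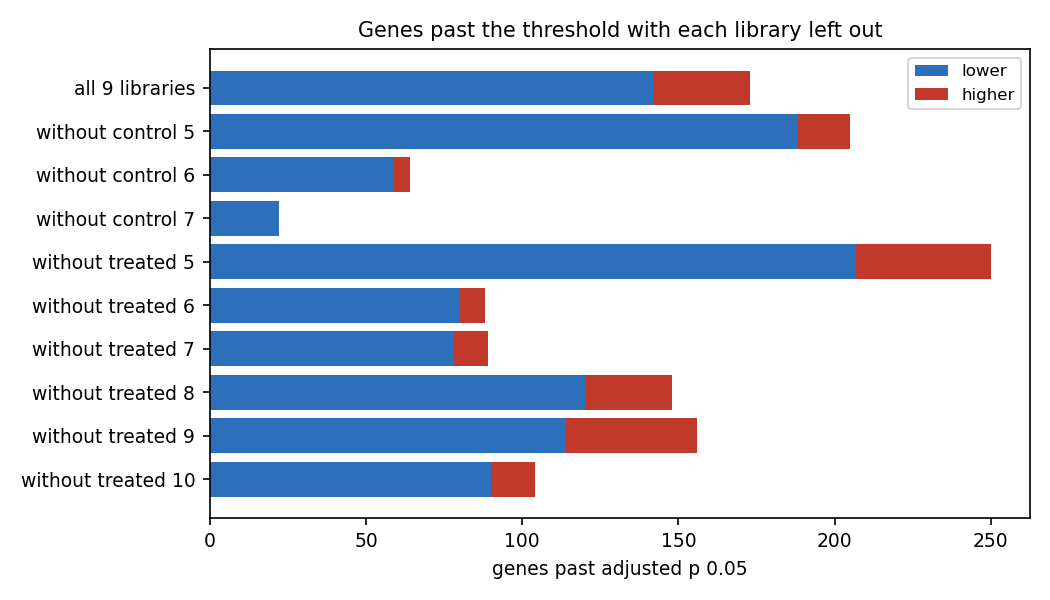
Number of genes past adjusted p 0.05 (horizontal; blue lower, red higher) with all 9 libraries and with each library left out. The count runs from 22 without control 7 to 250 without treated 5.

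The call held for 20 genes whichever single library was left out. Among them, Oasl, Isg15, Gbp2, Gbp5 and Epsti1 are interferon-induced genes, and Cxcl10 and Ccl5 are chemokines. Fcgr3a, Hcst, Ms4a7 and Nkg7 are genes of myeloid and cytotoxic cells. Ccnb2, Cdkn3, Ndc80, Spc25, Rrm2 and Pclaf act in mitosis or DNA synthesis. The other 3 were Car5b, a mitochondrial carbonic anhydrase, Trpv2, a cation channel, and Sytl4, which tethers secretory granules to the plasma membrane. None was a called member of the class II, FOXO, MAPK feedback, sterol or translation lists. All 20 were lower in the treated libraries. Those outside the lists and the largest changes were chosen for this property after their values were seen.

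Many interferon-induced genes fell. Of 30 measured members of the interferon response list, 11 passed the threshold, all lower, and the changes of all 30 were negative with a median of -0.57, against 6862 of 14506 negative and a median of 0.01 over all genes. Averaged over the list, the controls lay between 6.79 and 6.94 and the treated libraries between 5.798 and 6.24. Between males the median difference of the list was -0.80, and between females it was -0.43. Many interferon-induced genes carry a promoter element called ISRE. Its core (GAAA, any 2 bases, GAAA) was searched on both strands in the 250 bases before each start site in RefSeq GRCr8. It was present in 371 of 11950 promoters of measured genes (3.10%), in 13 of 21 promoters of the list and in 5 of the 6 promoters found for the 11 genes that fell. For those 5 genes the 60 bases around a match are shown so that the core can be seen in its promoter. Oasl, the gene with the smallest p, has a promoter in the table and no match, and over all 142 lower genes the core was in 16 of 116 promoters (13.8%). Capitals mark the core, which reads TTTC, any 2 bases, TTTC where it lies on the other strand.
Oas1a (chr12:41330406-41330465, plus strand): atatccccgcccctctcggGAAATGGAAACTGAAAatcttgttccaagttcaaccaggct
Irf7 (chr1:205800058-205800117, minus strand): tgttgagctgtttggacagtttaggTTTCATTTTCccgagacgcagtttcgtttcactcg
Ifit3 (chr1:241527257-241527316, plus strand): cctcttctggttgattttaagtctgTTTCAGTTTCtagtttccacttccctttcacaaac
Ifi44l (chr2:243328639-243328698, plus strand): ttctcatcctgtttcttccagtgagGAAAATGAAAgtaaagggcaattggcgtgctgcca
Gbp2 (chr2:234005667-234005726, plus strand): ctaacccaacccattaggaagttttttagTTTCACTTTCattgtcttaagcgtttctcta
The capitals end between 22 and 60 bases before the start site of each gene, and Oas1a carries a pair of overlapping cores. A match of letters is a description of the promoter, and no binding was measured here.

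Oasl, a relative of the antiviral oligoadenylate synthetases, had the smallest adjusted p of all genes. Its level was 7.36, 6.75 and 6.49 in controls 5, 6 and 7, and 4.30, 4.54 and 4.86 as the lowest, median and highest of the treated libraries. Every treated library lay far below every control, a change of -2.49 on the log2 scale (SE 0.13, 5.60-fold lower, limma adjusted p = 1.87e-05). Isg15, a ubiquitin-like protein that is attached to other proteins during antiviral responses, was at 9.87, 9.10 and 9.07 in the controls and at 6.40, 7.66 and 8.11 in the treated libraries. Its groups did not overlap either (change -2.13, SE 0.20, adjusted p = 0.00225). Gbp2, a GTPase that attacks the membranes around intracellular microbes, was at 8.04, 7.49 and 7.98 in the controls and from 6.29 to 7.13 with a median of 6.81 in the treated libraries, again without overlap (change -1.22, SE 0.16, adjusted p = 0.0117). These 3 genes also passed without control 7, when the others of the list did not.

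The other 8 members that fell included Ifi27l2b (-1.92, adjusted p = 0.0117), Mx2, a GTPase that restricts viruses (-1.66, 0.0118), and Ifit3, of a family that binds viral RNA (-1.53, 0.0125). Irf7, the transcription factor that amplifies interferon production, changed by -1.25 (SE 0.19, adjusted p = 0.0143) and Usp18, which removes Isg15 from proteins and dampens the receptor, by -1.19 (SE 0.18, adjusted p = 0.0143). Usp18 was at 5.13, 5.14 and 5.14 in the controls and between 3.63 and 4.46 in the treated libraries, a clean separation with nearly equal controls. Rtp4 (-1.51) and Ifi44l (-1.07) passed although their groups overlapped, and Oas1a (-0.98) passed without overlap. Among members that did not pass, Mx1 changed by -0.75 (adjusted p = 0.165) and Ifit1 by -0.15 (0.635). The list had 11 falls without control 6 and between 9 and 12 without the other libraries except control 7, and 6 without the sex term.

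Of the 28 measured chemokines and receptors, 6 passed, all lower, with a list median of -0.20. Cxcl10, an interferon-induced attractant of T cells, was at 8.60, 6.68 and 7.14 in the controls and at 4.77, 5.41 and 6.13 as the lowest, median and highest treated values. No treated library reached a control (change -2.38, SE 0.25, 5.20-fold lower, adjusted p = 0.00276). Ccl5, which attracts T cells and monocytes, was at 8.07, 8.97 and 8.31 in the controls and between 6.21 and 6.99 in the treated libraries (change -1.86, SE 0.23, adjusted p = 0.00739). Ccl11 was at 11.40, 10.33 and 10.73 in the controls, and its treated values spread from 5.42 to 10.56 with a median of 8.98. The groups overlapped through treated library 5, and treated library 10 was the lowest (change -3.13, SE 0.56, adjusted p = 0.0268, and 0.371 without the sex term). Ccl7 (-1.33) and Cxcl9 (-0.77), both attractants of leukocytes, and the receptor Ccr2 (-0.67) also fell. Ccl2 (-0.57, adjusted p = 0.28) and Ccl3 (0.78, 0.115) did not pass. Without control 7 the list had 3 falls (Cxcl10, Ccl5 and Ccl7), and without the sex term it had 2.

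Genes of antigen presentation fell in part. Among 12 class II genes, which load peptides for helper T cells, RT1-Bb (-1.72, SE 0.31, adjusted p = 0.0293) and RT1-Db1 (-1.01, SE 0.20, 0.0388) passed, 11 changes were negative and the median was -0.48. RT1-Bb was at 8.43, 8.65 and 8.52 in the controls and from 5.60 to 7.63 with a median of 7.38 in the treated libraries, the lowest being treated library 10. RT1-Da (-1.39, adjusted p = 0.0877) and the invariant chain Cd74 (-1.13, 0.102) were lower in all 6 treated libraries than in any control and did not pass. Of 10 class I and immunoproteasome genes, the inducible proteasome subunits Psmb10 (-0.94, adjusted p = 0.0176) and Psmb8 (-0.91, 0.0206) fell, and Tap1, the peptide transporter, changed by -0.09. The class II count was 0 without control 6, control 7, treated 6 or treated 7, 1 without treated 8 and 5 without control 5. The class I count was 0 without control 7 and 1 without control 6, treated 7, treated 9 or treated 10. Neither list had a call without the sex term. For class II the median difference was -0.79 between males and -0.15 between females.

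Part of the lymphocyte markers fell as well. Of 17 lymphocyte markers 6 passed, all lower (Ptprc, Cd3g, Nkg7, Cd3d, Il7r and Cd2), with a list median of -0.27. The mean of the list lay between 4.66 and 4.79 in the controls and between 4.19 and 4.37 in the treated libraries. Between males its members differed by a median of -0.51, and between females by -0.18. Ptprc, the pan-leukocyte antigen CD45, was at 6.72, 6.66 and 6.33 in the controls and from 4.82 to 5.73 with a median of 5.47 in the treated libraries (change -1.34, SE 0.21, adjusted p = 0.0173). Cd3g, a chain of the T cell receptor complex, was at 4.40, 5.45 and 4.83 in the controls and between 3.45 and 3.76 in the treated libraries, close to the lower quartile of the arrays (change -1.22, SE 0.18, adjusted p = 0.0139). Nkg7, of cytotoxic granules, was at 4.90, 4.81 and 4.64 in the controls and from 3.61 to 4.17 in the treated libraries (change -0.97, SE 0.11, adjusted p = 0.00349). Cd8a (-0.22, adjusted p = 0.508) and Cd4 (-0.27, 0.457) did not pass. The number of lymphocyte markers that fell was 1 without control 7, 2 without control 6 and 3 without control 5, treated 7 or treated 9.

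Of 15 macrophage markers, Aif1 (-1.52, SE 0.21, adjusted p = 0.0117) and the signalling adaptor Tyrobp (-0.81, SE 0.14, 0.0202) fell, and the list median was -0.17. Its mean lay between 6.75 and 6.85 in the controls and between 6.40 and 6.81 in the treated libraries. Between males its members differed by a median of -0.22, and between females by 0.009. Csf1r, the receptor that macrophages need to survive, changed by -0.21 (adjusted p = 0.588) and Cd163, a scavenger receptor of resident macrophages, by 0.30 (0.575). Fcgr3a, an activating IgG receptor of macrophages and natural killer cells outside the list, was at 5.90, 6.15 and 6.15 in the controls and between 4.22 and 4.69 in the treated libraries. It was singled out after its values were seen, having the second smallest p of all genes (change -1.65, SE 0.13, adjusted p = 0.000756). The macrophage count was 0 without control 7 and without the sex term, and 1 without control 6 or treated 9. None of 10 neutrophil markers passed. The part that leukocyte number plays in the falls of interferon, chemokine and antigen presentation genes was not tested.

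**Figure D3:**
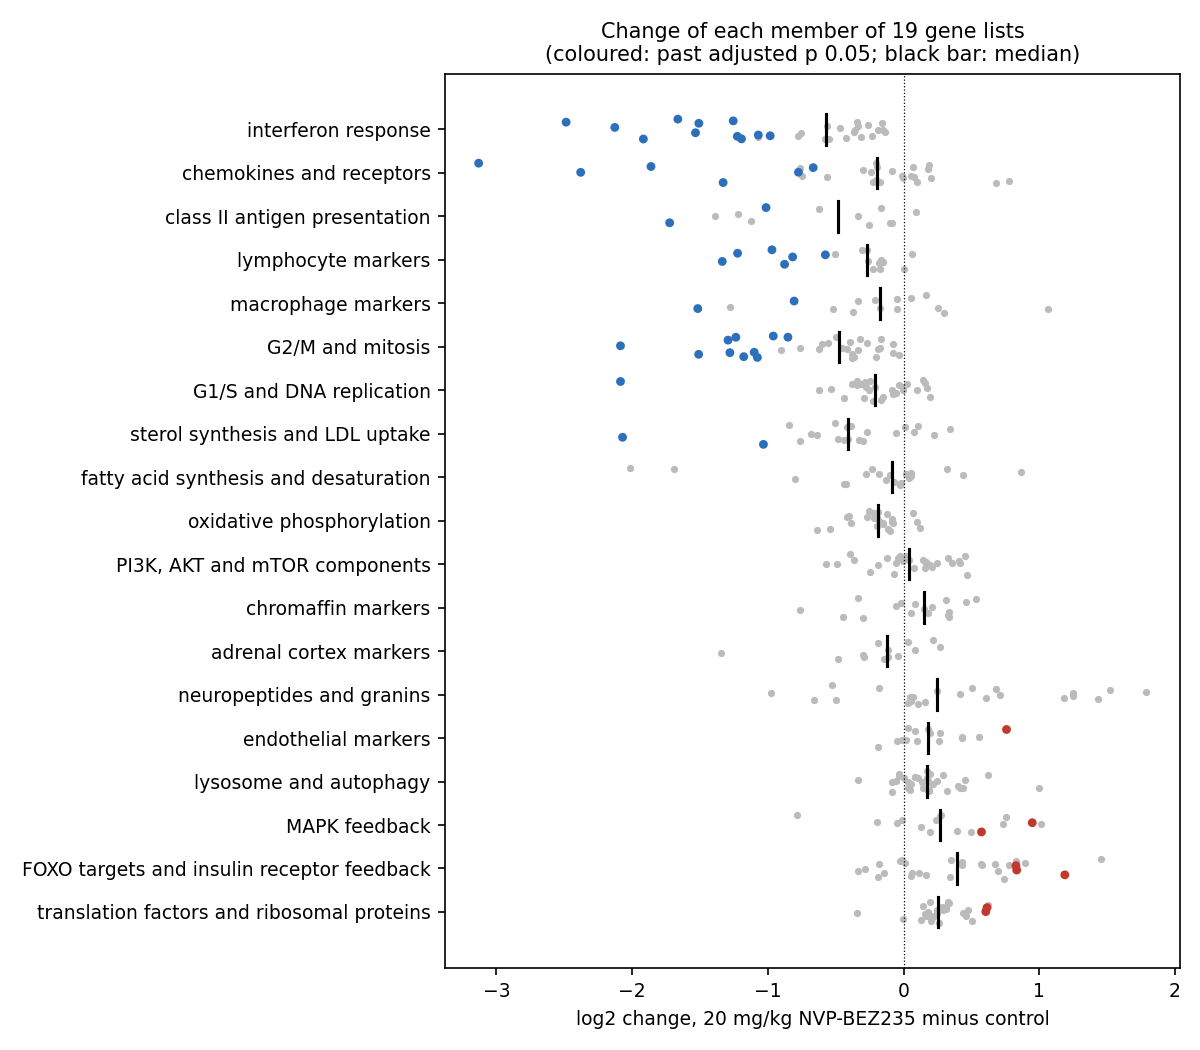
Change of each measured member (dots, log2, 20 mg/kg minus control) of 19 gene lists, coloured where adjusted p was below 0.05, with black bars at the list medians. The medians run from -0.57 for the interferon response to 0.39 for FOXO targets, and coloured dots in the upper lists lie to the left of 0.

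Genes of mitosis formed the second large group of falls. Of 32 measured members of the G2/M and mitosis list 10 passed, all lower (Top2a, Ndc80, Nuf2, Cdk1, Prc1, Nusap1, Cdkn3, Ccnb2, Ccnb1 and Kif23), all 32 changes were negative and the median was -0.48. For 18 of the 32 members every treated library was below every control, against 2.9% of all genes. The list mean lay between 4.35 and 5.15 in the controls and between 3.99 and 4.12 in the treated libraries. Between males the median difference of the list was -0.79, and between females it was -0.26. Many genes of this phase carry a CHR element, TTTGAA, which the DREAM complex binds to repress them outside G2 and M, often beside a CCAAT box. In the same promoter windows, both strands, the CHR letters were present in 13.9% of 11950 promoters, in 11 of 27 promoters of the list and in 6 of the 10 genes that fell. CCAAT was present in 35.6% of all promoters, in 20 of the 27 and in 8 of the 10. Over all 142 lower genes the CHR letters were in 26 of 116 promoters (22.4%). Shown for 5 of those 6 mitosis genes are 60 bases around a match, with the CHR letters (TTTGAA, or TTCAAA on the other strand) in capitals.
Top2a (chr10:84473094-84473153, minus strand): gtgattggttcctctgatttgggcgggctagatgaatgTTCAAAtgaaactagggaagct
Cdk1 (chr20:19265233-19265292, plus strand): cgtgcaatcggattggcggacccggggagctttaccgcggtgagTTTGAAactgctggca
Ccnb2 (chr8:79981669-79981728, minus strand): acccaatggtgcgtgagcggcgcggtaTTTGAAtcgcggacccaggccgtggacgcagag
Kif23 (chr8:71320631-71320690, minus strand): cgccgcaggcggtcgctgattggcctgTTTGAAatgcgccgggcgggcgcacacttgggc
Prc1 (chr1:143659421-143659480, plus strand): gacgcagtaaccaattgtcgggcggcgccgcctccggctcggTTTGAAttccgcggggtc
A CCAAT box, written ccaat or attgg, stands in each of these 5 windows upstream of the capitals. The sixth window, of Cdkn3, differs in that its CCAAT box lies downstream of the CHR letters. For Ccnb1, Nusap1, Nuf2 and Ndc80 these letters are not in the window.

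Top2a, the topoisomerase that untangles chromosomes before division, was at 4.90, 6.99 and 6.18 in controls 5, 6 and 7 and at 3.67, 3.73 and 3.98 as the lowest, median and highest treated values. The female control was the lowest of the 3, and all treated libraries lay together near the lower quartile of the arrays (change -2.09, SE 0.32, adjusted p = 0.0149). The difference was -2.88 between males and -1.09 between females. Cdk1, the kinase that starts mitosis, was at 4.21, 5.40 and 4.86 in the controls and between 3.23 and 3.56 in the treated libraries (change -1.28, SE 0.19, adjusted p = 0.0139). Ccnb2, a cyclin that activates Cdk1, was at 5.79, 6.29 and 5.96 in the controls and between 4.75 and 5.20 in the treated libraries, so its levels were measured away from the low end (change -1.08, SE 0.14, adjusted p = 0.0117). Ndc80, which attaches kinetochores to microtubules, changed by -1.51 (SE 0.19, adjusted p = 0.00739). Plk1 (-0.56, adjusted p = 0.0701) and Aurkb (-0.08, 0.905), also kinases of mitosis, did not pass. Without control 7 the list had 3 falls (Ndc80, Ccnb2 and Cdkn3).

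In the G1/S and DNA replication list, 1 of 29 measured genes passed, and the median was -0.21. Rrm2, the regulated subunit of the enzyme that makes deoxynucleotides, was at 5.70, 6.42 and 6.65 in the controls and at 3.79, 4.16 and 4.38 as the lowest, median and highest treated values. Its groups were far apart (change -2.09, SE 0.21, 4.26-fold lower, adjusted p = 0.00256), and it passed without each single library. The replicative helicase subunit Mcm6 (-0.63, adjusted p = 0.094) and Pcna, the clamp of DNA polymerases (-0.15, 0.59), did not pass. None of 14 D cyclins and cell cycle inhibitors passed. Cdkn1b itself, the mutated gene, was at 8.31, 8.76 and 8.48 in the controls and from 8.63 to 9.39 with a median of 8.91 in the treated libraries. It changed by 0.58 (SE 0.12) at an adjusted p of 0.0546, which was 0.0422 without treated library 5 and 0.0437 after median centring, but 0.098 without control 6, 0.183 without control 7 and 0.385 without the sex term. The array measures its transcript and not the mutant protein. Ccnd1, cyclin D1, changed by -0.67 (SE 0.22, adjusted p = 0.17).

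None of 29 PI3K, AKT and mTOR components, the genes of the targeted pathway, passed, and their median was 0.04. The nearest was Tsc1, an inhibitor of mTOR complex 1, at 0.47 (adjusted p = 0.0773), with all 6 treated libraries above all controls. Pik3r1, the regulatory subunit p85 of PI3K, changed by -0.49 (SE 0.19, adjusted p = 0.22). Without control 5 it changed by -0.89 (limma adjusted p = 0.0458), and the list then had 1 fall. In the list of FOXO targets and insulin receptor feedback, 3 of 28 genes passed, all higher, and the median of 0.39 was the highest of the 35 lists. Its mean lay between 6.93 and 6.999 in the controls and between 7.22 and 7.55 in the treated libraries. Depp1, a FOXO target linked to autophagy, was at 7.17, 6.64 and 6.34 in the controls and from 7.56 to 8.64 with a median of 8.09 in the treated libraries. All treated libraries lay above all controls (change 1.19, SE 0.21, 2.28-fold higher, adjusted p = 0.0245). Fbxo32, the ubiquitin ligase atrogin-1, was at 6.56, 6.71 and 6.92 in the controls and from 6.98 to 7.81 in the treated libraries (change 0.83, SE 0.12, adjusted p = 0.0143). Txnip, an inhibitor of thioredoxin and of glucose uptake, was at 10.38, 11.01 and 11.05 in the controls and from 11.36 to 11.72 in the treated libraries (change 0.83, SE 0.13, adjusted p = 0.0164). Insr, the insulin receptor, changed by 0.74 (adjusted p = 0.0541) and Foxo3 by 0.67 (0.0548), both short of the threshold. The list count was 0 without control 7, 1 without control 6 and without the sex term, and 6 after median centring.

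Of 16 MAPK feedback genes, which limit growth factor signalling through ERK, 2 rose and the median was 0.27. Etv5, a transcription factor induced by ERK, was at 5.18, 5.65 and 5.43 in the controls and from 5.59 to 6.71 with a median of 6.07 in the treated libraries. The lowest treated library lay just under the highest control (change 0.95, SE 0.15, adjusted p = 0.0164). Dusp6, the phosphatase of ERK, changed by 0.57 (SE 0.12, adjusted p = 0.0477) with the highest value, 8.10, in treated library 10. The count was 0 without control 6, control 7 or the sex term and 1 without any of treated 5, 6, 7, 8 or 10.

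Of 21 measured genes of sterol synthesis and LDL uptake Idi1 and Cyp51 fell, 16 changes were negative (6862 of 14506 over all genes) and the median was -0.41. The list mean lay between 7.20 and 7.74 in the controls and between 6.87 and 7.32 in the treated libraries, so the groups overlapped. The median difference was -0.60 between males and -0.17 between females. Idi1, which isomerises isopentenyl diphosphate, was at 7.09, 7.90 and 8.40 in the controls and at 4.99, 5.73 and 6.57 as the lowest, median and highest treated values. The groups were separate (change -2.07, SE 0.36, 4.20-fold lower, adjusted p = 0.0246). Cyp51, lanosterol demethylase, was at 8.31, 8.87 and 9.14 in the controls and from 7.50 to 7.94 in the treated libraries (change -1.03, SE 0.19, adjusted p = 0.0267). Sqle, squalene epoxidase (-0.76, adjusted p = 0.0684), and Fdps, farnesyl diphosphate synthase (-0.64, 0.0844), lay below all controls in all treated libraries and did not pass. None of 20 genes of fatty acid synthesis and desaturation passed. The desaturases Fads1 (-2.02, SE 0.45, adjusted p = 0.0596) and Fads2 (-1.69, SE 0.39, 0.0684) had the largest changes there, and treated library 5, at 10.07 and 10.82, lay among the controls. The sterol count was 0 without control 6, control 7, treated 7 or treated 9, 1 without treated 6 or treated 10 and 4 without control 5. The fatty acid count was 3, all lower, without control 5 or treated 5.

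**Figure D4:**
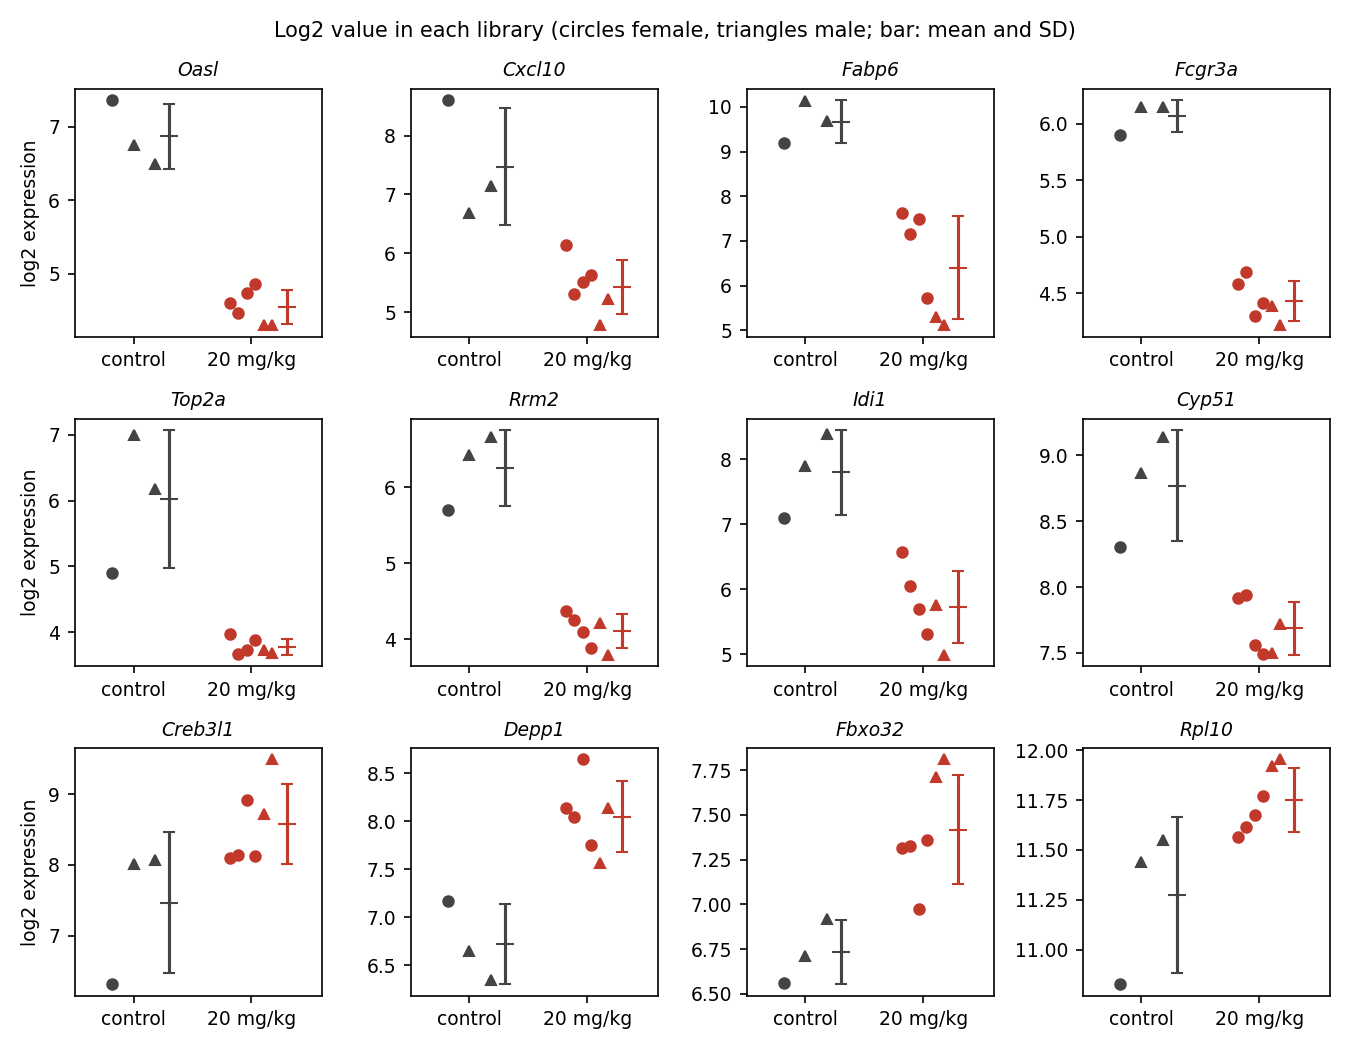
Log2 level of 12 genes in each of the 3 control and 6 treated libraries (circles female, triangles male), with the mean and SD of each group beside the points. The upper 8 panels fell and the lower 4 rose, and female control 5 is the lowest control for Creb3l1 (6.31) and Rpl10 (10.82).

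Fabp6, best known for carrying bile acids in the ileum, showed the largest fall of all genes. It was at 9.18, 10.14 and 9.69 in the controls and at 5.11, 6.44 and 7.62 as the lowest, median and highest treated values. No treated library came within 1 log2 unit of a control, and treated libraries 8, 9 and 10 were the lowest (change -3.59, SE 0.53, adjusted p = 0.0135). The difference was -4.71 between males and -2.18 between females. The call was lost without control 7 (adjusted p = 0.061). Treated libraries 9 and 10 also had the lowest levels of Mc2r, the ACTH receptor of the adrenal cortex (8.00 and 7.28, against 9.61 to 9.74 in the controls), while Star, which feeds cholesterol to steroid synthesis, differed by 0.03 between the groups. Mc2r changed by -1.35 (adjusted p = 0.0713), and 0 of 14 adrenal cortex markers passed. The part of cortical cells in the fall of Fabp6 was not tested.

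Creb3l1, which is released from the endoplasmic reticulum by proteolysis and activates secretory and matrix genes, showed the largest rise. It was at 6.31, 8.02 and 8.07 in controls 5, 6 and 7 and at 8.10, 8.43 and 9.49 as the lowest, median and highest treated values. All treated libraries lay above all controls although treated library 5, the lowest, lay close to control 7 (change 1.48, SE 0.26, 2.79-fold higher, adjusted p = 0.026). The other 24 measured genes of the unfolded protein response did not pass, among them Hspa5, the chaperone BiP (0.41, adjusted p = 0.238). Pde10a was at 5.02, 6.71 and 7.16 in the controls and from 6.34 to 8.19 with a median of 7.12 in the treated libraries, so the groups overlapped (change 1.39, SE 0.26, adjusted p = 0.0359). In both genes the female control was the lowest library, and the difference between females (2.01 for Creb3l1, 1.72 for Pde10a) exceeded that between males (1.06 and 1.12). Neither call held without control 5, 6 or 7, without treated 6 or 10 or without the sex term (adjusted p = 0.354 for Creb3l1 and 0.573 for Pde10a).

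Below Creb3l1, Pde10a, Depp1 and Etv5, the other 11 of the 15 largest rises ran from 0.87 (Dpp7, a lysosomal peptidase) to 0.69 (Clk1, a kinase of splicing factors). They included Celf3, a splicing regulator of neurons (0.87, limma adjusted p = 0.0421). Its treated values ran from 8.25 to 9.86 and overlapped the controls at 7.44, 9.25 and 8.91. Only 3 of the 6 treated values lay above the control mean, and without the sex term the limma adjusted p was 0.806. Grina, a calcium regulator of the Golgi and endoplasmic reticulum (0.74, adjusted p = 0.0125), Ahcy, which hydrolyses S-adenosylhomocysteine (0.71, 0.0153), and Use1, a SNARE of retrograde transport (0.85, 0.0143), were higher in all 6 treated libraries than in any control. Flt1, a receptor for VEGF, was the 1 of 15 endothelial markers that passed (0.75, SE 0.15, adjusted p = 0.041). Col3a1, fibrillar collagen, was the 1 of 18 fibroblast, pericyte and matrix genes that passed (-0.67, adjusted p = 0.0459), and the globin Hba-a3 the 1 of 8 erythroid genes (-1.43, 0.0359). Each of these 3 single calls was lost without any of the 3 controls, and 3 erythroid genes fell without treated 10. The share past the threshold over all genes was 1.19%. Among 27 apoptosis regulators 14 changes were negative and 13 positive, with a median of -0.0018. Of these regulators, the death ligand Tnfsf10 (-1.58, SE 0.23, adjusted p = 0.0125) and Casp12 (-1.07, 0.0421) fell. Neither passed without control 7, and 1 passed without control 6, treated 6, treated 7 or treated 10.

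Few genes of the translation machinery passed. Of 28 translation factors and ribosomal proteins, Rpl10 (0.61, SE 0.11, adjusted p = 0.0293) and Eif4a2, a helicase of initiation (0.61, SE 0.13, 0.0477), rose, 26 changes were positive (7644 of 14506 over all genes) and the median was 0.25. Rpl10 was at 10.82, 11.44 and 11.55 in the controls and from 11.57 to 11.96 in the treated libraries. The list had 0 calls without control 5, control 6, control 7, treated 6, treated 7 or treated 10 and without the sex term, and 5 after median centring.

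In 18 of the 35 lists no gene passed, among them chromaffin markers (0 of 17, median 0.15), pituitary markers (0 of 13), neuropeptides and granins (0 of 23, median 0.25), synaptic vesicle genes (0 of 21), immediate early genes (0 of 23), lysosome and autophagy genes (0 of 35, median 0.17), glycolysis and hypoxia genes (0 of 32) and oxidative phosphorylation genes (0 of 25, with 22 negative changes and a median of -0.19). Th changed by 0.53 (SE 0.14, adjusted p = 0.106), Dbh, which makes noradrenaline, by 0.33 (0.276) and Chga, the granule protein chromogranin A, by 0.32 (0.238). Some neuropeptide genes were high in treated library 10: Ucn2 was at 9.92 there and between 5.11 and 6.50 in the other treated libraries, and Vgf at 9.53 against 5.72 to 7.45. Gpnmb, a lysosomal membrane glycoprotein of stressed cells, was at 6.31, 6.88 and 6.66 in the controls and from 7.16 to 8.00 in the treated libraries without overlap, and yet did not pass (SE 0.22, adjusted p = 0.0558). A miss therefore does not show that levels were equal.

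The changes at 20 mg/kg were set beside those of the other dose, 4 libraries at 30 mg/kg (3 female, 1 male) against controls 1 to 4 (all female), in a fit of all 17 libraries with sex as a term. The comparisons share no library, but they share the estimates of spread and of sex, and dose cannot be told apart from the set of title numbers. At 30 mg/kg 437 genes passed (3.01%), 217 higher (1.5%) and 220 lower (1.52%). In that fit 52 genes passed at 20 mg/kg, 50 of them with the same sign at 30 mg/kg and 22 past the threshold in both. Of the 173 genes of the 9-library fit, 157 had the same sign at 30 mg/kg, against 8393 of all 14506 genes (57.9%), and 41 passed in both comparisons, all in the same direction, which is 23.7% of the 173 and 9.38% of the 437. Oasl (-2.80, adjusted p = 0.000622), Fabp6 (-2.70, 0.0178) and Ccl11 (-4.02, 0.00727) fell, and Creb3l1 (2.45, 0.00321) and Pde10a (2.21, 0.00167) rose at 30 mg/kg too. Of the interferon list, 11 genes fell in each comparison.

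**Figure D5:**
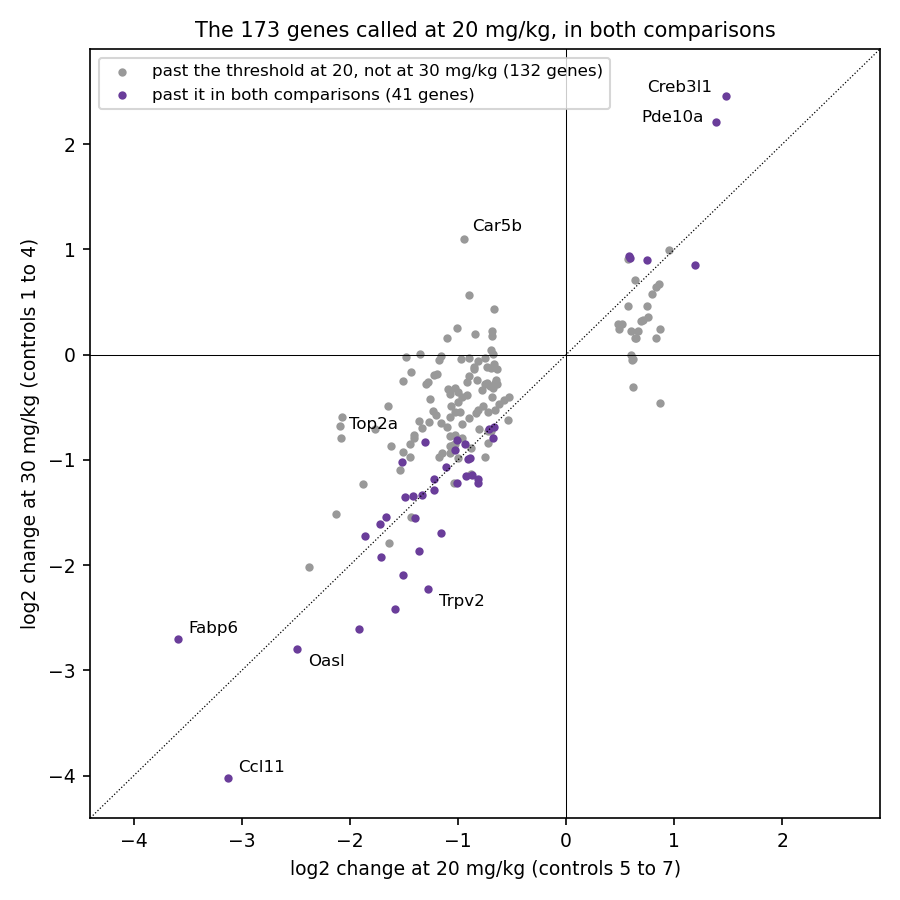
Log2 change of the 173 genes at 20 mg/kg against controls 5 to 7 (horizontal) and at 30 mg/kg against controls 1 to 4 (vertical), with the 41 genes past the threshold in both in purple and the line of equal change dotted. Most points lie below 0 on both axes (131 of the 142 lower genes), and Car5b, at 1.10 at 30 mg/kg, is the highest of the lower genes there.

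No gene passed the limma test of the difference between the 2 changes (0 of 14506, 0%), 971 (6.69%) had an unadjusted p below 0.05, and the smallest adjusted p was 0.148. It belonged to Ctsl, the lysosomal protease cathepsin L, which changed by 0.00 at 20 mg/kg and by 0.97 at 30 mg/kg (adjusted p = 0.000295). Of the mitosis list 0 of 32 genes passed at 30 mg/kg, with a median of -0.26. Ndc80 changed there by -0.25 (SE 0.22), a difference between the changes of -1.30 in the 17-library fit (SE 0.32, unadjusted p = 0.000895, adjusted p = 0.63), and Top2a by -0.79 (difference -1.34, SE 0.43, adjusted p = 0.64). Rrm2 changed by -0.68 (difference -1.41, SE 0.34, adjusted p = 0.63). The lower level of mitosis genes was thus called at 20 mg/kg, and its difference from 30 mg/kg did not pass after adjustment. For Cdk1, Ccnb1, Ccnb2 and Cdkn3 the means of controls 1 to 4, all female, were 3.62, 4.49, 5.30 and 3.43. Those of controls 5 to 7, of which 2 are male, were 4.825, 5.25, 6.01 and 4.85, and those at 20 mg/kg 3.43, 4.29, 4.93 and 3.76. Control 5, the female, was at 4.21, 4.93, 5.795 and 4.78, so these control means differ in sex as well as in title numbers. The part of these control levels in the difference between the changes was not tested. Gpat3, an acyltransferase of glycerolipid synthesis, changed by 0.28 at 20 mg/kg and 1.99 at 30 mg/kg (difference -1.69, SE 0.34, adjusted p = 0.491). The number of genes that differed was 8 without replicate 1 and 4 without replicate 2 at 30 mg/kg, and 1 without treated library 10, and 0 in the other settings tried.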

How the data were processed

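RNA was extracted with a column kit including DNase, amplified from small amounts and biotin-labelled, per the labels' protocols. The deposited values are log2 intensities from RMA, for which the submitters' processing notes name Affymetrix Expression Console 1.3.0.187. They were used as deposited. The table held 29214 probe sets, of which 15310 had 1 symbol, 323 had several and 13581 had none listed. For each symbol the probe set with the highest mean over 17 arrays was kept, giving 14506 genes (527 had several probe sets to choose from). limma 3.58.1 in R 4.3.3 (lmFit, eBayes, two-sided) fitted treatment and sex to the 9 arrays, with Benjamini-Hochberg adjustment. The genes named are the 15 largest changes per direction past the threshold, up to 6 called members of each of 35 lists (otherwise the 2 with the smallest p), a fixed set of marker genes and the 5 smallest p per direction in the test between doses, and text that goes beyond this names genes picked after their values were seen. Members and lists were chosen with earlier results of these data known. Of 818 listed genes 722 were measured. The number of arrays limits the precision. No pair of arrays was identical. Promoter windows and gene identifiers came from RefSeq GRCr8 tables. The fit was tested on simulated data.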

Additional observations from a re-analysis of the deposited data

Results flagged for a closer look

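Dixon's criterion flags a value whose gap to the next exceeds 0.625 of the range. By it, 1 treated library lay far from the other 5 in 8 of the 122 named genes. For independent, normally distributed values it flags about 1 in 20 groups. The named genes share the same 6 treated libraries, and 84 of the 122 were past the threshold. The number of flagged genes therefore cannot be judged against that share. The criterion was applied to the named genes only. In 7 of the 8 the flagged library was treated library 10, which also stood farthest out on the first principal component. It was the lowest treated library for Aif1 at 5.58, RT1-Bb at 5.60 and RT1-Db1 at 5.74, the next values being 6.62, 6.91 and 6.62. It was the highest for Clk1 at 10.73, Dusp6 at 8.10, Flt1 at 8.84 and Ucn2 at 9.92, the next values being 10.13, 7.65, 8.30 and 6.50. Treated library 9 was the highest for Oas1a at 5.49, with the next at 4.78. Libraries 9 and 10 are the male treated libraries, and the criterion took no account of sex. Without treated library 10, 104 genes passed the threshold in place of 173, and 89 of them were among the 173.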

How the results depend on the processing

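The count of 173 genes was 55 without the sex term, 52 in the fit of 4 groups over 17 libraries, 105 over all probe sets and 101 over genes above the median. It was 2 in the male libraries alone and 4 in the female libraries alone (chosen after seeing the data), 14 at an adjusted p of 0.01 and 81 with at least a 2-fold change. Leaving out 1 library gave 22 (without control 7) to 250 (without treated 5), and 64 without control 6, 88 without treated 6, 89 without treated 7 and 104 without treated 10. Trended variances, robust variances, quantile normalization, probe set means and the 25th percentile filter stayed within 1.5 times of it, and quantile normalization gave 47 higher of 195. With the replicate number as a block and no sex term, 12 genes passed (1 higher). After the mean of each group was subtracted, same-numbered control and treated libraries correlated at 0.23, -0.29 and -0.07. Controls 6 and 7 are male and treated 6 and 7 female, so these values cannot show or exclude a pairing. The numbers were not taken as a pairing because the labels give them no meaning. Array weights gave 259 genes, within 1.5 times. For the difference between doses the count was 0 to 8 leaving out 1 library, with 8 without replicate 1 and 4 without replicate 2 at 30 mg/kg and 1 without treated library 10. Of 84 named genes past the threshold, 1 changed sign in any setting: Celf3, at -0.21 with the block. Named genes not past it that changed sign were Aurkb (0.138 with array weights, 0.0645 in males, -0.30 to 0.0813 leaving out 1 library), Cd163 (-0.11 in males, -0.11 to 0.57 leaving out 1), Ifit1 (0.0565 in males, -0.23 to 0.0565 leaving out 1) and Tap1 (0.29 in females, -0.40 to 0.0300 leaving out 1). In females Cd4 was 0.16, Csf1r 0.19, Pik3r1 0.00275 and Vgf -0.0558. Star was -0.0443 with array weights, -0.0782 with quantile normalization, -0.0810 in males and -0.0810 to 0.11 leaving out 1. Ctsl was -0.00385 in the fit of 4 groups, -0.0127 with array weights, -0.0985 in males and -0.0985 to 0.0374 leaving out 1. The causes were not tested. Values near the lower quartile of the arrays are compressed, which limits changes of low genes such as Cd3g and Top2a.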

Other observations

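These groups were put together after the values of their members were seen, so their counts describe and support nothing. Of 7 interferon-inducible GTPases, 6 fell (Gbp5, Gbp2, Mx2, Igtp, Irgm and Ifi47), with a median change of -1.22. Some of these GTPases attack the membranes of vacuoles that hold microbes. The mean of this group lay between 6.37 and 6.75 in the controls and between 5.06 and 5.88 in the treated libraries. Of 25 myeloid receptors and their adaptors 11 fell, with a median of -0.70, among them Fcgr3a, Hcst, C3ar1, a complement receptor, and Fcer1g, the signalling chain of several Fc receptors. Its mean lay between 5.86 and 5.93 in the controls and between 5.03 and 5.51 in the treated libraries.

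Of 16 circadian clock genes Per1 and Klf9 rose and the median was 0.47. Both are also among 15 glucocorticoid-responsive genes, of which 3 rose (with Txnip) and whose median was 0.60. Of 72 cytosolic ribosomal protein genes 3 rose (Rplp0, Rpl10 and Rpl7a), 68 changes were positive and the median was 0.19. Of 68 mitochondrial ribosomal protein genes 2 fell (Mrpl36 and mrpl24), 58 changes were negative and the median was -0.26. Beside all of these groups, the shares over all genes were 0.214% higher and 0.979% lower, with 7644 of 14506 changes positive.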
